A study of Mus musculus with 16 samples.

Results

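The comparison described here sets LSK cells against myeloid progenitors (MP) in unirradiated wild-type (WT) mice. It was chosen by label and holds 4 of the 16 arrays of the series, 2 for each cell type. LSK cells are bone marrow cells without lineage antigens that carry Sca1 and c-Kit (Lin-Sca1+c-Kit+), and MP cells carry c-Kit but not Sca1 (Lin-Sca1-c-Kit+). Both came from the marrow of C57BL/6J mice that carry no Parp-2 deletion and received no radiation. Each array held RNA from 1 pool of at least 3 mice, so p-values measure the spread between pools and not between animals. The other 12 arrays cover the same cell types from Parp-2-/- mice, which lack the DNA damage sensor Parp-2, and from WT and Parp-2-/- mice 2.5 h after 5 Gy of radiation. The unirradiated Parp-2-/- arrays and the irradiated WT arrays are used below as further sets of LSK and MP arrays.

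Blood formation runs from multipotent stem cells through progenitors of narrowing potential. The LSK gate holds the stem cells and the multipotent progenitors, including some that have begun to express lymphoid genes. The MP gate holds common myeloid progenitors together with granulocyte and monocyte progenitors and megakaryocyte and erythroid progenitors. Both gates are therefore mixtures, and in bulk RNA a larger share of a cell type and more RNA per cell of that type cannot be told apart. Transcription factors such as Hlf, Meis1 and the Hoxa proteins maintain stem cells, Gata1 and Klf1 drive the erythroid programme, and Spi1 (PU.1) and the C/EBP proteins drive the granulocyte and monocyte programme.

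Levels are log2 intensities of Mouse Gene 1.0 ST arrays, and a difference is the mean of the 2 LSK arrays minus the mean of the 2 MP arrays, in log2 units ± standard error. Differences were tested with limma, and a row counts as called when its p, adjusted by Benjamini-Hochberg over the 22961 rows with a gene symbol, is under 0.05. Of these, 1200 rows (5.23%) were called. They divide into 297 rows higher in LSK cells (1.29%) and 903 rows lower (3.93%), of which 114 and 505 differed by at least 2-fold. The 2 LSK values lay on 1 side of the 2 MP values in all 1200 called rows. Over all 22961 tested rows they lay above both MP values in 7726 and below both in 5128. Such a separation was thus common among uncalled rows too. Over all tested rows the differences had a median of 0.09, and 59.9% of them lay above 0. Among the 11480 rows above the median row mean, 153 were called higher (1.33%) and 866 lower (7.54%). The split depended on scaling: a further quantile normalization called 274 rows higher and 452 lower (37.7% of calls higher, against 24.8% as deposited), and setting the array medians equal called 206 and 1276 (13.9%).

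The pools were not equally alike. The MP arrays correlated at 0.989 with each other over all rows, whereas the LSK arrays correlated at 0.969, which is also the correlation of LSK pool 1 with MP pool 1. LSK pool 2 correlated at 0.960 and 0.959 with the MP arrays. The LSK pools differed by more than 1 log2 unit in 933 rows and the MP pools in 225. Without LSK pool 1, LSK pool 2, MP pool 1 or MP pool 2 the number of called rows was 1614, 488, 186 or 319, and in each such fit the single remaining array is assumed to vary like the other groups. None of these 4 fits called all of the 1200 rows again, and each also called other rows. Fitted on its own 4 arrays, which leave fewer residual degrees of freedom than the 16, the comparison called 51 rows. Group sizes of 2 cannot reach significance in an exact permutation test, whose smallest two-sided p is 0.333.

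**Figure D1:**
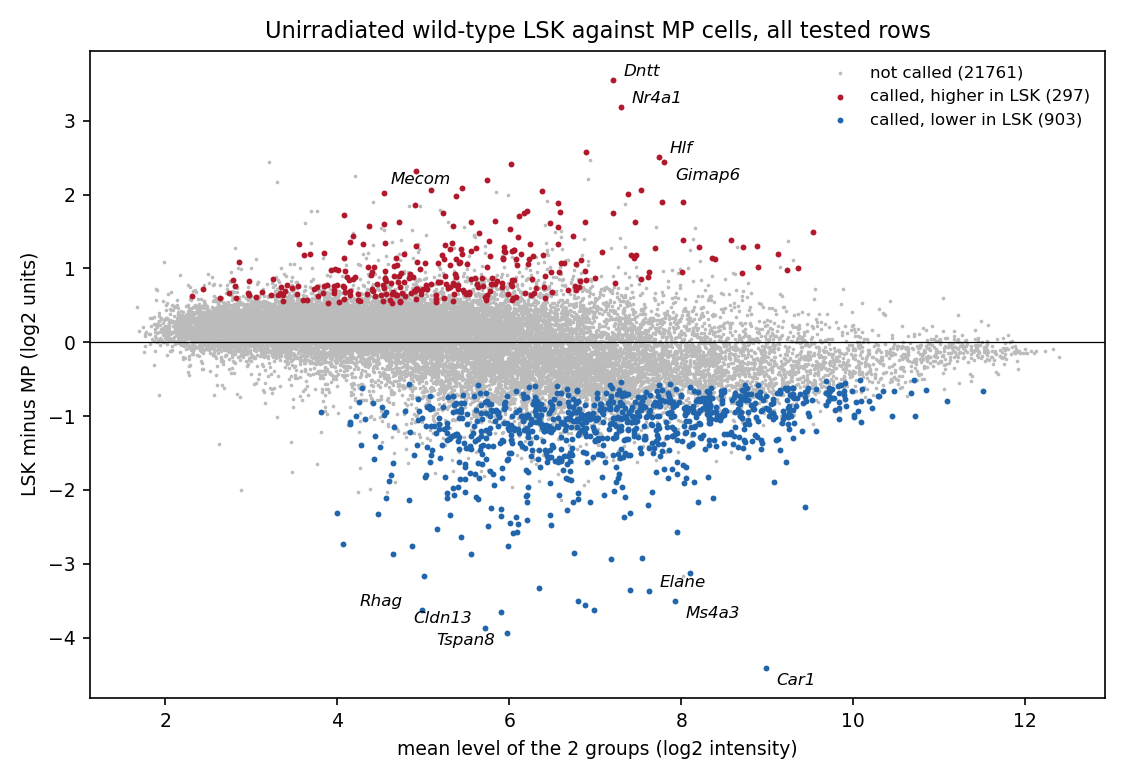
Difference between LSK and MP cells in log2 units (vertical axis) against the mean level of the 2 groups in log2 intensity (horizontal axis) for the 22961 tested rows. The 297 rows called higher in LSK cells are red, the 903 called lower are blue, the remaining 21761 are grey, and calls at high levels lie mostly below 0.

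Sort antigens were examined against the labels. Of 11 measured genes on this list, 2 were called lower in LSK cells (18.2%, against 3.93% of all rows) and 0 higher. Not all of the 11 are described here. Kit, the receptor used to gate both populations, read 9.37 and 9.28 on the LSK arrays and 9.02 and 9.06 on the MP arrays. The difference of 0.29 ± 0.17 did not pass (adjusted p = 0.34, limma). Fcgr3, which encodes an Fc receptor that marks granulocyte and monocyte progenitors, read 5.11 and 4.88 in LSK cells and 7.12 and 6.54 in MP cells, so that all MP values lay above all LSK values. It was 3.56-fold lower in LSK cells (-1.83 ± 0.25, adjusted p = 0.00298). Cd34, a sialomucin found on most multipotent cells and on a part of the myeloid progenitors, differed by 0.72 ± 0.24 (adjusted p = 0.101). Slamf1, a stem cell surface receptor, read 5.41 and 4.67 in LSK cells against 4.66 and 4.59 and did not pass (adjusted p = 0.443). Ly6a, which encodes Sca1, is not analysed here.

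Genes of mature cells often lay below the array median, but not on every list. A level is called below the median here when both arrays of a group lay under their own median over all rows. Such a level is not shown to be above background, so the size of a difference from it is uncertain. Of 11 measured B cell genes, 0 were called, and their mean levels were 4.38 and 4.66 in LSK cells against 4.14 and 4.12 in MP cells. Of 16 T and NK cell genes, Cd5 was called higher and Nkg7 lower in LSK cells, and 10 lay below the median in both groups. Among 11 neutrophil genes, S100a8 was the 1 called, lower in LSK cells, and 6 lay below the median in both groups. The summed level of these 11 was 46.8 and 47.5 in LSK cells and 51.2 and 50.7 in MP cells. Of 12 macrophage genes, Mrc1 was called higher in LSK cells, with both groups below the median (3.87 and 3.81 against 3.20 and 3.00). Among 12 dendritic cell genes the call was Flt3, which multipotent progenitors express as well. Of 14 endothelial and stromal genes the call was Emcn, which stem cells express as well, and the summed level of the list was 69.3 and 69.4 against 64.6 and 63.3. Mature red cell genes gave 2 calls among 6, Tspo2 and Fech, both lower in LSK cells. Both groups lay below the median in 7 of the 11 B cell genes, 7 of the 12 macrophage genes and 7 of the 12 dendritic cell genes. They did so in 6 of the 14 endothelial and stromal genes and 1 of the 6 mature red cell genes. Over all 22961 tested rows the count was 9223. The part of such mature or stromal cells in the results below was not tested.

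Transcription factors of stem cells were higher in LSK cells as far as they were called. Of 28 measured members, 5 were called higher (17.9%, against 1.29% of all rows) and 0 lower. The members lay above 0 in 26 cases, and their median difference was 0.50 against 0.09 over all rows. Hlf, a bZIP factor of stem cells, read 8.91 and 9.08 on the LSK arrays and 6.57 and 6.39 on the MP arrays. Its groups lay far apart, with pools that differed little, and Hlf was 5.70-fold higher in LSK cells (2.51 ± 0.23, adjusted p = 0.000447). Mecom, the zinc finger factor also known as Evi1, read 6.62 and 6.37 against 4.48 and 4.33. Both MP values were below the median. Mecom differed by 2.09 ± 0.48 (adjusted p = 0.0285, limma) and by 0.93 in a further row of the gene, so the size is uncertain. Meis1, a homeobox partner of the Hox proteins, read 9.37 and 9.18 against 8.09 and 7.69 (1.39 ± 0.28, adjusted p = 0.0178). Erg, an ETS factor, read 8.96 and 8.95 against 8.04 and 7.61 (1.13 ± 0.23, adjusted p = 0.0188), and Prdm16, a zinc finger factor, read 5.65 and 5.99 against 5.03 and 4.85 (0.88 ± 0.19, adjusted p = 0.0214). Gata2, which acts in stem cells and in early myeloid cells, read 6.66 and 6.47 against 6.57 and 6.30, and the groups overlapped. The number of calls on this list was 1 without LSK pool 2, without MP pool 1 and without MP pool 2, and Hlf was called in all of these fits.

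Hoxa genes shared this direction. Of 23 measured Hox genes, 4 were called higher in LSK cells (17.4%, against 1.29% of all rows) and 0 lower. Both groups lay below the median in 13 of the 23. Hoxa5 read 7.04 and 6.27 in LSK cells against 5.26 and 4.76 in MP cells and was 3.12-fold higher (1.64 ± 0.28, adjusted p = 0.00864). Hoxa6 had the closest pools, 6.19 and 6.16 against 4.82 and 5.06 (1.24 ± 0.16, adjusted p = 0.00266). Hoxa9, whose product sustains self-renewal together with Meis1, read 6.30 and 6.66 against 5.74 and 5.53 (0.84 ± 0.17, adjusted p = 0.0171). Hoxa10 read 5.28 and 5.58 against 4.57 and 4.72, with both MP values below the median (0.78 ± 0.19, adjusted p = 0.0369). Calls on the Hox list numbered 2 without LSK pool 2, 2 without MP pool 1 and 1 without MP pool 2.

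Among 29 surface and adhesion genes of stem cells, 6 were called higher in LSK cells and 1 lower. These are 20.7% and 3.45%, against 1.29% and 3.93% of all rows. Emcn, which encodes the sialomucin endomucin, read 6.26 and 5.99 in LSK cells and 4.48 and 3.64 in MP cells, where it was below the median (2.07 ± 0.35, adjusted p = 0.00737). Adgrl4 and Adgrg1 encode adhesion G protein-coupled receptors. Adgrl4 read 10.21 and 10.33 against 8.94 and 8.62 (1.49 ± 0.22, adjusted p = 0.00485), and Adgrg1 read 9.02 and 8.69 against 7.65 and 7.47 (1.30 ± 0.26, adjusted p = 0.017). Cd27, a receptor of the tumour necrosis factor family on multipotent progenitors, read 9.49 and 9.23 against 8.29 and 7.84 (1.29 ± 0.24, adjusted p = 0.011). Procr, the endothelial protein C receptor of stem cells, read 5.02 and 5.59 against 4.48 and 4.30, below the median in MP cells (0.92 ± 0.19, adjusted p = 0.0197). Thy1 was the gene of this list whose LSK pools were farthest apart among those called, at 6.59 and 7.97 against 6.06 and 5.28 (1.61 ± 0.39, adjusted p = 0.0338). Cd63, a tetraspanin of endosomes and granules, was the member lower in LSK cells (-0.64 ± 0.17, adjusted p = 0.0455); it falls outside the rule for named genes and was chosen after its values were seen. The 6 higher calls became 3 without MP pool 1 and 1 without MP pool 2.

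Signals and brakes linked to stem cells gave few calls. On the Notch, Wnt and TGF-beta list 3.45% were called higher, against 1.29% of all rows. Of 29 Notch, Wnt and TGF-beta genes, Fzd6, a Wnt receptor, was called higher (5.81 and 6.09 against 4.99 and 4.64; 1.13 ± 0.25, adjusted p = 0.0228) and 0 lower, and this call was lost without LSK pool 2, MP pool 1 or MP pool 2. None of 21 quiescence and cell cycle brake genes was called by limma; the largest differences there were those of Cdkn2c (-1.05 ± 0.37, adjusted p = 0.119) and Rb1 (-0.84 ± 0.28, adjusted p = 0.102). Of 25 DNA methylation and Polycomb genes, Satb1 was the 1 called.

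**Figure D2:**
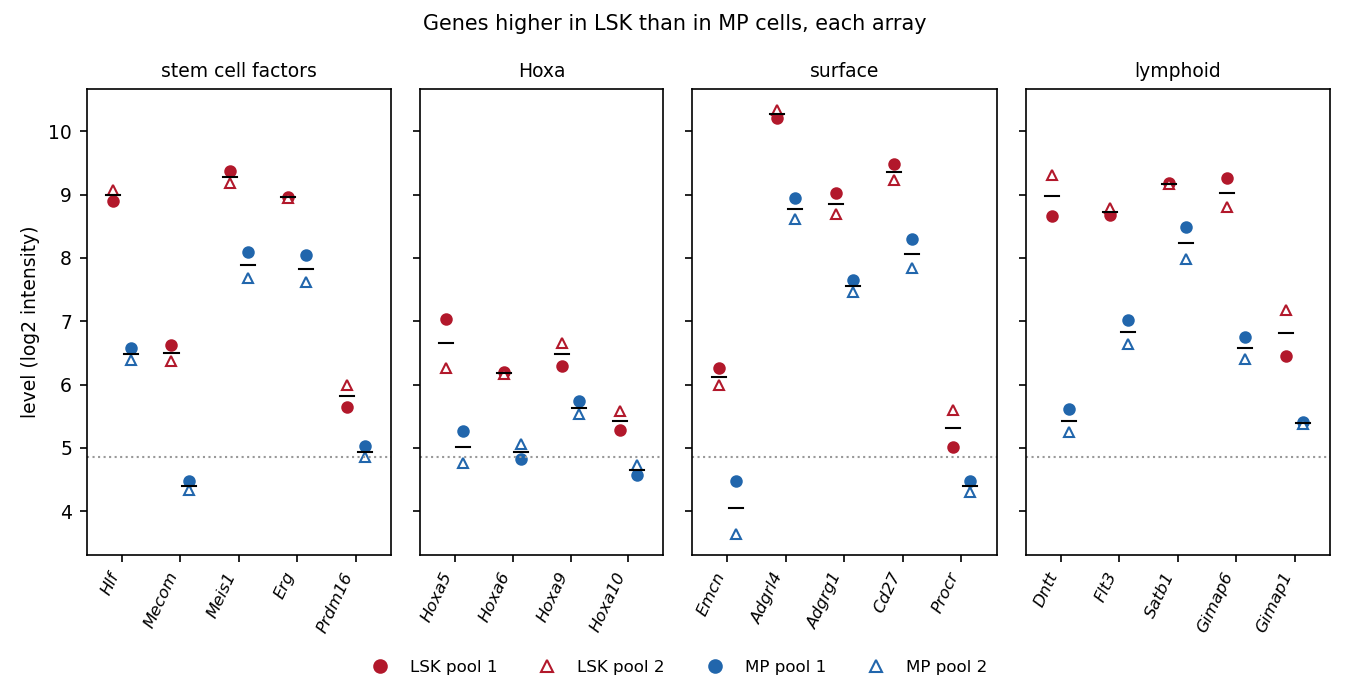
Level in log2 intensity (vertical axis) of 19 genes called higher in LSK cells, on each of the 4 arrays: red for LSK, blue for MP, filled circles for pool 1, open triangles for pool 2, black bars for group means. The dotted line is the mean of the 4 array medians. Mecom, Emcn, Procr and Hoxa10 lie below it in MP cells. No gene has overlapping groups, which holds for every called row.

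Lymphoid genes held the largest rise of the comparison. Of 22 lymphoid priming genes, 4 were called higher in LSK cells (18.2%, against 1.29% of all rows) and 0 lower. Their median difference was 0.46. Dntt, which adds untemplated bases at antigen receptor joints, read 8.66 and 9.31 in LSK cells and 5.62 and 5.24 in MP cells. That is 11.7-fold more in LSK cells (3.55 ± 0.34, adjusted p = 0.00057). Flt3, the cytokine receptor that marks lymphoid-primed multipotent progenitors, read 8.67 and 8.78 against 7.01 and 6.64 and was 3.73-fold higher (1.90 ± 0.24, adjusted p = 0.00215). Satb1, a chromatin organiser of lymphoid cells, read 9.18 and 9.17 against 8.48 and 7.98 (0.94 ± 0.21, adjusted p = 0.025), and Lax1, an adaptor of lymphocyte signalling, differed by 1.08 ± 0.28 (adjusted p = 0.0435). The members did not move as 1 block. Ltb differed by 1.46 ± 0.65 (adjusted p = 0.204) and Vpreb1, a surrogate light chain of early B cells, by -1.31 ± 0.73 (adjusted p = 0.306), so neither passed. Calls on the lymphoid list were 2 without LSK pool 2 and 2 without MP pool 2, while Dntt and Flt3 were called without each of the 4 arrays in turn.

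Gimap genes encode GTPases of lymphocyte survival, and 7 of 8 measured members lay above 0, with a median difference of 0.85. Gimap6 read 9.26 and 8.80 in LSK cells against 6.75 and 6.40 in MP cells, 5.46-fold more (2.45 ± 0.33, adjusted p = 0.00298). Gimap1 read 6.45 and 7.18 against 5.41 and 5.38 (1.42 ± 0.37, adjusted p = 0.0453). Gimap7 showed a difference of 1.52 with a standard error of 0.76 and did not pass (adjusted p = 0.255). Without LSK pool 2, MP pool 1 or MP pool 2 the list kept 1 call.

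Of 32 interferon-stimulated genes, 4 were called higher in LSK cells (12.5%, against 1.29% of all rows) and 0 lower. Irf7, a transcription factor of the interferon response, read 6.18 and 5.96 against 4.59 and 5.02 (1.26 ± 0.24, adjusted p = 0.0143). Ifitm1, a membrane protein that restricts viral entry, read 9.86 and 9.86 against 9.06 and 8.64 (1.005 ± 0.18, adjusted p = 0.00954). Iigp1 and Rsad2 differed by 0.997 ± 0.25 and 0.82 ± 0.20 (adjusted p = 0.0399 and 0.04), but Iigp1 was below the median in both groups and Rsad2 in MP cells. The list was not uniform: 21 of the 32 members lay above 0 and 11 below, where 59.9% of all rows lay above 0. Its median difference was 0.23, against 0.09 over all rows. That median was 0.09 without MP pool 2 and 0.12 without LSK pool 1. It was 0.32 without MP pool 1 and 0.43 without LSK pool 2. Of 15 antigen presentation genes 0 were called by limma, with H2-Ab1 at 0.93 ± 0.28 (adjusted p = 0.0713).

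Immediate early genes are induced within minutes of a stimulus. Of 23 measured members, 22 lay above 0, with a median difference of 0.57, but 1 was called (4.35%, against 1.29% of all rows). Nr4a1, an orphan nuclear receptor, read 9.39 and 8.39 in LSK cells against 6.13 and 5.29 in MP cells, 9.07-fold more (3.18 ± 0.49, adjusted p = 0.00545). For Nr4a1 pool 1 was the higher one in both cell types. Among the 23 members, LSK pool 2 was the higher LSK pool in 17, with a median difference between the pools of 0.41. MP pool 1 was the higher MP pool in 16. The list median was 0.75 without LSK pool 1 and 0.34 without LSK pool 2. It was 0.64 without MP pool 1 and 0.53 without MP pool 2. Egr1 (1.097 ± 0.52, adjusted p = 0.235) and Nr4a2 (1.41 ± 0.58, adjusted p = 0.175) did not pass. Sik1, a kinase gene induced by cyclic AMP, read 8.36 and 8.39 against 6.32 and 6.43 (2.00 ± 0.34, adjusted p = 0.00785). Plk2, a polo-like kinase gene, read 7.83 and 6.98 against 5.78 and 4.91 (2.05 ± 0.54, adjusted p = 0.0468), and its call was lost without each of the 4 arrays in turn.

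Further genes among the 15 largest rises were of mixed function. Myl10, a myosin light chain gene, read 7.92 and 8.43 in LSK cells and 5.84 and 5.36 in MP cells (2.58 ± 0.43, adjusted p = 0.00711). Gcnt2, a glycosyltransferase gene, read 8.43 and 8.70 against 6.66 and 6.34 (2.07 ± 0.28, adjusted p = 0.00298). Wfdc17 differed by 2.41 ± 0.45, Crispld1 by 1.99 ± 0.38 and Oser1 by 1.90 ± 0.45 (adjusted p = 0.0115, 0.0136 and 0.0317). The rule for the largest rises admitted only genes whose groups did not overlap. Crispld1 was below the median in MP cells, and a further row of Oser1 differed by 0.20. Of 29 cytokine receptor genes, 1 was called higher and 3 lower (3.45% and 10.3%, against 1.29% and 3.93% of all rows). Il18r1, a subunit of the interleukin-18 receptor, was the 1 called higher (2.02 ± 0.36, adjusted p = 0.00955, limma). It read 5.05 and 6.06 against 3.22 and 3.86 in MP cells, below the median. The 3 receptor genes called lower in LSK cells were Csf1r, Epor and Ifngr1, of which 0 were called without MP pool 1.

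Erythroid genes made up the most strongly shifted list, lower in LSK than in MP cells. Of 28 membrane, transport and surface genes of erythroid cells, 18 were called lower in LSK cells and 0 higher, and 27 lay below 0. Their median difference was -1.47, against 0.09 over all rows, and the share called lower was 64.3% against the 3.93% given above. Car1, the carbonic anhydrase of erythroid progenitors, read 6.04 and 7.51 in LSK cells and 10.96 and 11.42 in MP cells. It was 21.4-fold lower in LSK cells, the largest fall of all named genes (-4.42 ± 0.49, adjusted p = 0.00138). Cldn13, a claudin of erythroid cells, read 3.46 and 4.10 against 6.82 and 8.47 (-3.86 ± 0.48, adjusted p = 0.00216). Rhag, the Rh-associated glycoprotein, read 3.07 and 3.28 against 6.13 and 7.47 (-3.62 ± 0.45, adjusted p = 0.00216). Both were below the median in LSK cells, so the size of their differences is uncertain. Ermap, an erythroid membrane protein of the butyrophilin family, read 5.36 and 6.07 against 8.11 and 9.20, 7.65-fold lower in LSK cells (-2.94 ± 0.39, adjusted p = 0.0027).

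Further members of the erythroid list showed the same order of groups. Kel, the Kell blood group protein, read 3.85 and 3.94 in LSK cells against 5.98 and 6.86 in MP cells, and Rhd, the Rh blood group protein, read 3.93 and 4.31 against 6.14 and 7.83. Kel and Rhd differed by -2.52 ± 0.39 and -2.87 ± 0.43 (adjusted p = 0.00545 and 0.00467, limma), with LSK values below the median. Tfrc, the transferrin receptor that brings iron into the cell, had close pools, at 7.26 and 6.86 against 8.81 and 8.87 (-1.78 ± 0.22, adjusted p = 0.00215). Aqp1, a water channel, differed by -2.34 ± 0.32 (adjusted p = 0.00303). Kel, Rhd, Tfrc and Aqp1 fall outside the rule for named genes and were chosen after their values were seen. Atp1b2, a sodium pump subunit, read 5.51 and 4.84 against 8.51 and 9.09 (-3.63 ± 0.38, adjusted p = 0.000844). Ctse, the aspartic protease cathepsin E, had the most spread LSK pools of these genes, at 5.44 and 7.62 against 9.20 and 10.13 (-3.13 ± 0.63, adjusted p = 0.0167).

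The erythroid list also separated the MP pools. In 26 of its 28 members MP pool 2 lay above MP pool 1, with a median difference between the pools of 0.64, against 0.02 over all rows. The mean level of the list was 6.71 in MP pool 1 and 7.40 in MP pool 2, against 5.18 and 5.37 in the LSK pools. The count of members called lower was 17, 14 and 14 without LSK pool 1, LSK pool 2 and MP pool 1, and 9 without MP pool 2. It was 18 after a further quantile normalization and 18 with equal array medians.

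GATA motifs were looked for in the promoters of these genes, since Gata1 binds them in erythroid cells. The sequences are RefSeq's for build GRCm38.p6, from 250 bases before to 50 bases after the start of each gene, and 12 of the 18 genes called lower had one. A GATA motif was taken as AGATAA or TGATAA on either strand. It stood in 6 of the 12 promoters (50%). Of the 15613 measured genes with a promoter, 2664 (17.1%) held it, as did 18.6% of all 32851 RefSeq promoters. Over the whole erythroid list it stood in 9 of 20 promoters (45%), so the called members differed little from the list. Promoters of all genes called lower held it in 86 of 695 cases (12.4%), those of all called higher in 40 of 221 (18.1%). The motif was thus not a general feature of genes lower in LSK cells. Called haem and iron genes held it in 0 of 3 cases, too few for a contrast. The 3 promoters shown were chosen after the values were seen, from called blood group and membrane protein genes with a match, of which Rhd is another; capitals mark the GATA motif, which occurs 2 times in Kel.
Rhag promoter, chr17:40810899-40811198, plus strand: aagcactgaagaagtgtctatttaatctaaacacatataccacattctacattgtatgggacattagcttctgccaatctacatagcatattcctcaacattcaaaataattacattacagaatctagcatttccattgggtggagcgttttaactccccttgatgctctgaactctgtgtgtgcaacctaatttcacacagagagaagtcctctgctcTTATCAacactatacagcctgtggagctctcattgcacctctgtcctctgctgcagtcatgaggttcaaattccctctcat
Ermap promoter, chr4:119189946-119190245, minus strand: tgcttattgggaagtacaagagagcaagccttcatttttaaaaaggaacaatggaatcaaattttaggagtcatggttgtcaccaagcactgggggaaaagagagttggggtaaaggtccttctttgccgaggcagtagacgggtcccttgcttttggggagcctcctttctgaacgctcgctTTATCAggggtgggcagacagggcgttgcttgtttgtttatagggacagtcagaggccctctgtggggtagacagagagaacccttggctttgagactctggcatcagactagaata
Kel promoter, chr6:41704276-41704575, minus strand: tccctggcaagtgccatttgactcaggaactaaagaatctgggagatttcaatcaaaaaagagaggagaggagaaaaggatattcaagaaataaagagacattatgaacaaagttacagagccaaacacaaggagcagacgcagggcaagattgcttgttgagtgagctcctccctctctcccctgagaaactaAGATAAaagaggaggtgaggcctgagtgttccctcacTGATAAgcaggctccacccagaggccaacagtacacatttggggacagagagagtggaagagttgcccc
These matches are letters in a window and not measured binding sites.

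Erythroid transcription factors themselves gave 1 call among 16, lower in LSK cells (6.25%, against 3.93% of all rows). Gata1 read 5.29 and 4.98 in LSK cells against 5.89 and 6.76 in MP cells (-1.19 ± 0.30, adjusted p = 0.0405), and the call was kept in 1 of the 4 fits without 1 of these arrays and lost after a further quantile normalization. Klf1, the Krüppel-like factor that activates globin and membrane genes, read 5.39 and 5.71 against 6.05 and 7.61. Its groups did not overlap, but the MP pools lay 1.56 apart and the difference of -1.28 ± 0.38 did not pass (adjusted p = 0.0757). Epor, the erythropoietin receptor, read 4.25 and 4.58, below the median, against 5.25 and 5.68 (-1.05 ± 0.24, adjusted p = 0.0272), and its call was lost without each of the 4 arrays in turn.

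Haem and iron genes gave 6 calls among 23, all lower in LSK cells (26.1%, against 3.93% of all rows). Tmem14c, which carries a haem precursor into the mitochondrial matrix, had the tightest groups of the list, at 6.28 and 6.14 against 8.09 and 8.35 (-2.01 ± 0.15, adjusted p = 0.000101). Alas1, the synthase of the first step of haem synthesis outside the erythroid lineage, read 5.51 and 5.95 against 8.01 and 7.71 (-2.13 ± 0.31, adjusted p = 0.00394). Slc40a1, the iron exporter ferroportin, was 2.96-fold lower in LSK cells, where it was below the median (-1.57 ± 0.26, adjusted p = 0.00759). Slc11a2, an iron importer, Glrx5, of iron-sulphur cluster assembly, and Fech, which inserts iron into haem, differed by -1.43 ± 0.33, -1.28 ± 0.24 and -0.90 ± 0.20 (adjusted p = 0.0273, 0.013 and 0.0236). Cpox, another haem synthesis gene, did not pass (-1.60 ± 0.49, adjusted p = 0.0811), and its LSK pools read 7.68 and 6.13. The 5 globin genes measured were embryonic and theta globins (Hba-x, Hbb-bh1, Hbb-y, Hbq1a and Hbq1b); 0 were called by limma, and 4 lay below the median in both groups. Adult globins are not analysed here. Without MP pool 2 the haem and iron list gave 2 calls.

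Granule proteins of granulocyte and monocyte progenitors were the next most shifted list. Of 31 measured members, 14 were called lower in LSK cells (45.2%, against 3.93% of all rows) and 0 higher. Differences of 25 members lay below 0, and the median difference was -0.70. Elane, neutrophil elastase, read 6.33 and 5.55 in LSK cells against 9.60 and 9.01 in MP cells, 10.3-fold lower in LSK cells (-3.37 ± 0.35, adjusted p = 0.000844). Ms4a3, a membrane protein of granulocyte and monocyte progenitors, read 6.69 and 5.65 against 9.82 and 9.54 (-3.51 ± 0.36, adjusted p = 0.000844). Hp, which encodes haptoglobin, read 5.25 and 4.94 against 9.08 and 8.23, 11.8-fold lower (-3.56 ± 0.45, adjusted p = 0.00227). Anxa3, an annexin of neutrophil granules, had the smallest adjusted p of the comparison: 6.06 and 6.10 against 9.21 and 8.80 (-2.93 ± 0.17, adjusted p = 1.62e-05). S100a8, a calcium-binding protein of neutrophils and monocytes, read 3.81 and 4.42, below the median, against 6.97 and 6.54 (-2.64 ± 0.31, adjusted p = 0.00171). Igsf6, an immunoglobulin superfamily member, was 5.91-fold lower in LSK cells (-2.56 ± 0.26, adjusted p = 0.000844).

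Primary granule proteins differed in how far they separated the populations. Ctsg, cathepsin G, read 8.76 and 7.88 in LSK cells against 10.76 and 10.35 in MP cells (-2.24 ± 0.27, adjusted p = 0.00171). Prtn3, proteinase 3, read 7.70 and 6.92 against 8.56 and 8.53 (-1.24 ± 0.26, adjusted p = 0.021). Mpo, myeloperoxidase, read 11.38 and 10.99 against 11.92 and 11.76 and was 1.58-fold lower in LSK cells (-0.66 ± 0.16, adjusted p = 0.0357). All of these rows stood well above the array medians in LSK cells too. Ctsg, Prtn3 and Mpo fall outside the rule and were chosen after their values were seen. Unlike the erythroid list, this list was higher in MP pool 1: 25 of 31 members lay above their value in MP pool 2, with a median difference between the pools of -0.35. The count of members called lower was 13, 8, 7 and 9 without LSK pool 1, LSK pool 2, MP pool 1 and MP pool 2.

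Promoters of granule genes were searched for the PU.1 motif GAGGAAGT and the C/EBP motif TTGCNNAA, on either strand. Of the 14 genes called lower, 11 had a promoter. The PU.1 motif stood in 4 of these 11 (36.4%), against 3.24% of measured genes with a promoter. In the whole list it stood in 6 of 26 promoters (23.1%). The C/EBP motif also stood in 4 of the 11 (36.4%), against 11.3%, and in 13 of the 26 promoters of the whole list (50%). Promoters of the erythroid genes called lower held the PU.1 motif in 0 of 12 cases and the C/EBP motif in 1. At the shares of measured genes, 3.24% and 11.3%, so few promoters would also hold few or no matches. These counts therefore draw no contrast with the granule genes. The PU.1 motif stood in 6.79% of promoters of all genes called higher and in 5.04% of all called lower. Promoters of the granule genes called lower held the GATA motif in 0 of 11 cases. Over the whole granule list the GATA motif stood in 4 of 26 promoters (15.4%), near the 17.1% of measured genes. The following 4 promoters were chosen after the values were seen, to show elastase beside proteinase 3, which lies close to it on chromosome 10, and myeloperoxidase, and the gene with the largest fall among those with a C/EBP match. Capitals mark the PU.1 motif in Elane, Prtn3 and Mpo and the C/EBP motif in Ms4a3.
Elane promoter, chr10:79886062-79886361, plus strand: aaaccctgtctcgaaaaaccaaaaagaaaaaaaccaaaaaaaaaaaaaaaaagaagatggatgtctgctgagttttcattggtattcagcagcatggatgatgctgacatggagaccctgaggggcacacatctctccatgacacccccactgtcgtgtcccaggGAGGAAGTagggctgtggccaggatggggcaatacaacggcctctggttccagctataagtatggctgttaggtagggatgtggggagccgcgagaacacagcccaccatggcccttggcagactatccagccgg
Prtn3 promoter, chr10:79879417-79879716, plus strand: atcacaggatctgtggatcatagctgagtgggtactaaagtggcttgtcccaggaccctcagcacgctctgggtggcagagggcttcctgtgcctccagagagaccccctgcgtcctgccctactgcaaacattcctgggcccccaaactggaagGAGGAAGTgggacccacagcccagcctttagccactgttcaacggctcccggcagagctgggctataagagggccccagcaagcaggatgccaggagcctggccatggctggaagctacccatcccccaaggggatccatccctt
Mpo promoter, chr11:87793534-87793833, plus strand: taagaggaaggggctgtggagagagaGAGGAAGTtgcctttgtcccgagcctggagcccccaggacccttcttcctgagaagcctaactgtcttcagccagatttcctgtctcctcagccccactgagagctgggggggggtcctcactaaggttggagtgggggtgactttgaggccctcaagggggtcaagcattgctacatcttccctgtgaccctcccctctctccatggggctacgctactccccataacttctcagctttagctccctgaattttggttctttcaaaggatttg
Ms4a3 promoter, chr19:11640802-11641101, minus strand: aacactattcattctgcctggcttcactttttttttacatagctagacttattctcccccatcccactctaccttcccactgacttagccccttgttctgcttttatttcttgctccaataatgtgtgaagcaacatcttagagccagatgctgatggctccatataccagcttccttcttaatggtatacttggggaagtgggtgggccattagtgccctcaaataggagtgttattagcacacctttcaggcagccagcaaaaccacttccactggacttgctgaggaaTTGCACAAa
As above, a match is a description of the sequence only.

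**Figure D3:**
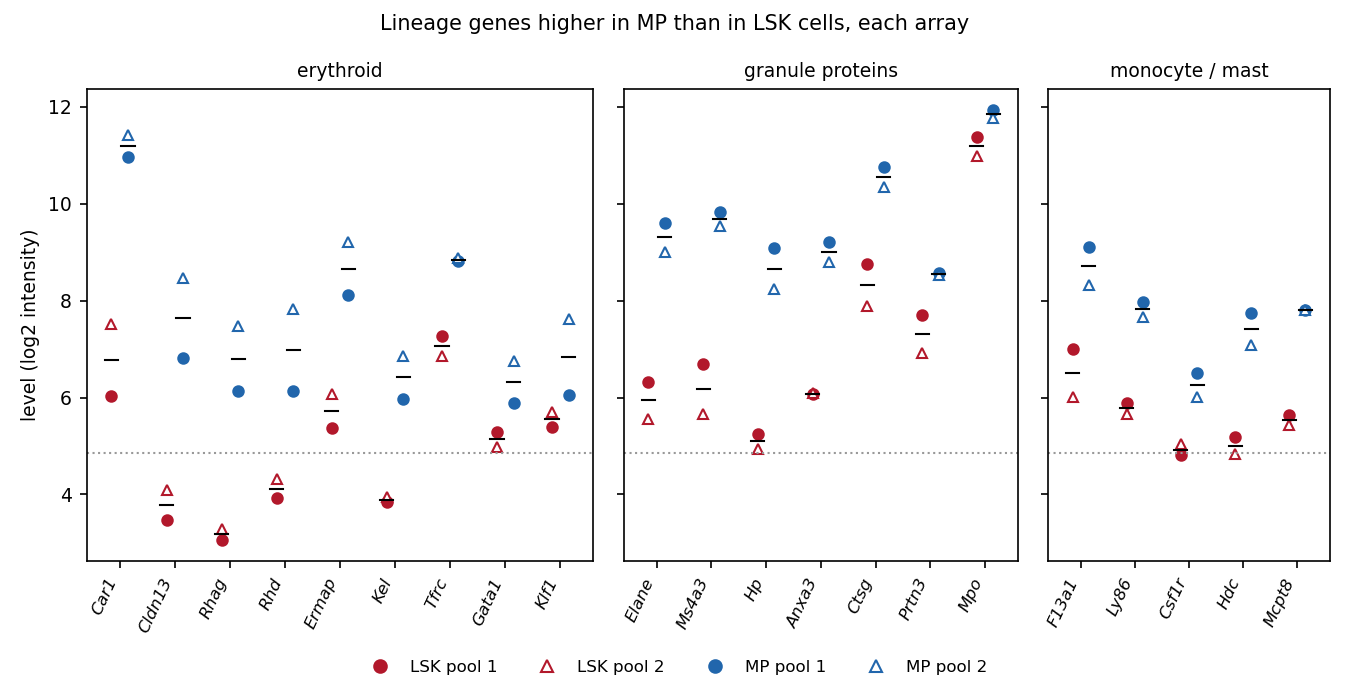
Level in log2 intensity (vertical axis) of 21 lineage genes on each of the 4 arrays: red for LSK, blue for MP, filled circles for pool 1, open triangles for pool 2, black bars for group means, and a dotted line at the mean of the 4 array medians. In MP cells most of the erythroid genes are higher in pool 2 and most of the granule genes in pool 1; Klf1 is shown although it was not called.

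Receptors and regulators of the granulocyte and monocyte lineage were less uniform. Of 24 receptor and surface genes, 6 were called lower in LSK cells (25%, against 3.93% of all rows) and 0 higher. Differences of 10 members lay above 0. F13a1, coagulation factor XIII of monocytes, read 7.001 and 6.02 against 9.10 and 8.32 (-2.20 ± 0.36, adjusted p = 0.00677). Ly86, a partner of the Toll-like receptor homologue Rp105, read 5.89 and 5.67 against 7.98 and 7.66 (-2.04 ± 0.27, adjusted p = 0.0027). Csf1r, the receptor of macrophage colony-stimulating factor, read 4.82 and 5.03 against 6.51 and 6.02 (-1.34 ± 0.25, adjusted p = 0.0121). Ccr2, a chemokine receptor of monocytes, and Fcgr2b, an inhibitory Fc receptor, differed by -1.62 ± 0.32 and -1.25 ± 0.28 (adjusted p = 0.0152 and 0.0264). Fcgr3, described above, is the other called member. From the cytokine receptor list, Ifngr1, a chain of the interferon gamma receptor, read 8.02 and 7.92 against 9.37 and 9.003 (-1.22 ± 0.28, adjusted p = 0.0268). MP pool 1 was the higher MP pool for 19 of the 24 receptor and surface genes, and without it 2 of the 6 calls were made.

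Transcription factors of this branch gave 1 call higher and 3 lower among 20 (5% and 15%, against 1.29% and 3.93% of all rows). Spi1, which encodes PU.1, read 6.81 and 6.82 in LSK cells against 6.97 and 6.61 in MP cells, and the groups overlapped (0.03 ± 0.19, adjusted p = 0.941). Cebpa read 6.79 and 6.89 against 7.78 and 6.97 (-0.54 ± 0.34, adjusted p = 0.366). Irf8, a factor of monocyte and dendritic cell development, and Cebpe, of late granulocytes, differed by -0.82 ± 0.28 and -0.74 ± 0.24 and did not pass (adjusted p = 0.115 and 0.088). The 3 called lower in LSK cells were Nfe2l2, the antioxidant regulator Nrf2 (7.94 and 7.90 against 9.0 and 8.95; -1.06 ± 0.17, adjusted p = 0.00665), Zeb2 (-0.85 ± 0.20, adjusted p = 0.0317) and Cebpd (-0.83 ± 0.20, adjusted p = 0.0317). Nr4a1, described above, was the 1 called higher. The count called lower was 0 without MP pool 1, 1 without MP pool 2, 1 without LSK pool 2 and 4 without LSK pool 1.

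Mast cell, basophil and eosinophil genes gave 3 calls among 20, all lower in LSK cells (15%, against 3.93% of all rows). In both groups 12 members lay below the median. Hdc, the histamine-forming decarboxylase, read 5.18 and 4.83 against 7.74 and 7.08 (-2.40 ± 0.36, adjusted p = 0.00467). Mcpt8, a basophil protease, read 5.65 and 5.44 against 7.80 and 7.81 (-2.26 ± 0.35, adjusted p = 0.00545). Prg2, the eosinophil major basic protein, differed by -1.60 ± 0.40 (adjusted p = 0.0394). Cpa3, a mast cell carboxypeptidase, did not pass (-1.26 ± 0.39, adjusted p = 0.0802). Without MP pool 1 the list gave 1 call, Mcpt8, and of the 4 fits without 1 of these arrays, Prg2 was called in that without LSK pool 2.

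Megakaryocyte and platelet genes gave 1 call higher and 1 lower among 19 (5.26% each, against 1.29% and 3.93% of all rows). Pf4, platelet factor 4, read 7.70 and 6.71 in LSK cells against 9.10 and 9.08 in MP cells (-1.89 ± 0.40, adjusted p = 0.021). Gp9, a subunit of the platelet receptor for von Willebrand factor, read 6.29 and 6.10 against 5.26 and 5.55 (0.79 ± 0.19, adjusted p = 0.0318). Their pools did not overlap, which holds for every called row. The median over the list was 0.09, as over all rows. Neither was called without LSK pool 2, MP pool 1 or MP pool 2, Gp9 was not called without LSK pool 1, and Pf4 was not called after a further quantile normalization.

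Genes outside the lists completed the largest falls. Tspan8, a tetraspanin, read 4.02 and 3.99 in LSK cells, below the median, against 7.26 and 8.63 in MP cells (-3.93 ± 0.55, adjusted p = 0.00356). Mt2, a metallothionein that binds zinc and copper, read 5.86 and 4.25 against 8.15 and 8.96 (-3.50 ± 0.47, adjusted p = 0.00298). Stom, the membrane protein stomatin, read 5.91 and 5.53 against 9.13 and 9.03 (-3.36 ± 0.39, adjusted p = 0.0016). Ces2g, a carboxylesterase, read 4.94 and 4.43 against 7.68 and 8.35 (-3.33 ± 0.34, adjusted p = 0.000844). Tlcd4 read 2.79 and 4.05, below the median, against 5.70 and 7.48 (-3.17 ± 0.51, adjusted p = 0.00624). The pools of these 5 genes did not overlap between cell types, and the calls were made without each of the 4 arrays in turn.

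Proliferation genes gave calls in 1 direction, lower in LSK cells. Of 46 DNA replication genes, 13 were called lower (28.3%, against 3.93% of all rows) and 0 higher. Differences of 41 members lay below 0, and the median difference was -0.53. Gins1, a subunit of the replicative helicase complex, read 5.96 and 6.61 in LSK cells against 8.28 and 8.09 in MP cells (-1.90 ± 0.29, adjusted p = 0.00487). Fen1, the flap endonuclease of lagging-strand synthesis, read 5.03 and 4.39 against 6.68 and 6.29 (-1.78 ± 0.31, adjusted p = 0.00901). Ccne1, cyclin E1, read 5.45 and 5.88 against 6.71 and 7.72 (-1.54 ± 0.27, adjusted p = 0.00946), and Orc2, of the origin recognition complex, read 6.31 and 6.83 against 7.85 and 8.18 (-1.45 ± 0.25, adjusted p = 0.00799). Rfc4, of the clamp loader, and Prim2, of the primase, differed by -1.18 ± 0.28 and -1.07 ± 0.26 (adjusted p = 0.0304 and 0.0389). Of 43 mitosis genes 42 lay below 0, with a median of -0.48, and 2 were called: Bub1, a spindle checkpoint kinase (7.81 and 7.31 against 8.83 and 8.42; -1.06 ± 0.21, adjusted p = 0.0159), and Ccna2, cyclin A2 (-0.80 ± 0.20, adjusted p = 0.0398). That is 4.65% of the mitosis list, near the 3.93% of all rows called lower. The mitosis count was 0 without LSK pool 2, 0 without MP pool 1 and 5 without LSK pool 1, and it was 1 after a further quantile normalization and 6 with equal array medians.

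E2F motifs, taken as TTTGGCGC or TTTCCCGC on either strand, stood in 13 of the 38 replication genes with a promoter (34.2%), against 2.56% of measured genes. Among the 11 replication genes called lower that had a promoter, 2 held one (18.2%), so the motif was not more common among the called members. One of these is Cdc6, which loads the replicative helicase and was 1.96-fold lower in LSK cells (6.52 and 6.34 against 7.28 and 7.53; -0.97 ± 0.20, adjusted p = 0.0186). Cdc6 was chosen after its values were seen, and capitals mark the E2F motif in its promoter.
Cdc6 promoter, chr11:98907901-98908200, plus strand: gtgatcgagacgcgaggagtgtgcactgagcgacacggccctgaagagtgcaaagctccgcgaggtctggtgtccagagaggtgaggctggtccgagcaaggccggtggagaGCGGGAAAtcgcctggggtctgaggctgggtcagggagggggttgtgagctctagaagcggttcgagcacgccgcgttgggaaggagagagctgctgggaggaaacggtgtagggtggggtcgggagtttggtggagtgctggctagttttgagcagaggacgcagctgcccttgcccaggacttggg

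Biosynthetic and mitochondrial lists showed differences of similar size. Of 30 nucleotide and folate synthesis genes, 9 were called lower in LSK cells (30%, against 3.93% of all rows), with a median of -0.65. Mthfd1, an enzyme of folate one-carbon metabolism, read 6.37 and 5.77 against 7.999 and 8.26, 4.17-fold lower (-2.06 ± 0.31, adjusted p = 0.00485), while Gart, of purine synthesis, read 7.10 and 7.10 against 8.24 and 7.95 (-0.995 ± 0.16, adjusted p = 0.00638). Of 33 ribosome biogenesis genes, 11 were called lower (33.3%) and 32 lay below 0, with a median of -0.62. Polr1b, a subunit of RNA polymerase I, read 5.67 and 5.26 against 6.81 and 6.99 (-1.44 ± 0.35, adjusted p = 0.0355). Pes1, of ribosomal RNA processing, differed by -1.20 ± 0.28 (adjusted p = 0.0317). Of 33 genes of the citric acid cycle and respiratory chain, 10 were called lower (30.3%) and 32 lay below 0. Their median was -0.69. Ndufs1, a subunit of respiratory complex I, had close pools, at 7.08 and 6.93 against 8.14 and 8.13 (-1.13 ± 0.19, adjusted p = 0.00816). Cox7a2, of cytochrome c oxidase, differed by -1.003 ± 0.18 (adjusted p = 0.00951). None of these 3 lists had a member called higher.

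Amino acid supply and tRNA charging genes gave 7 calls among 24, all lower in LSK cells (29.2%, against 3.93% of all rows). Asns, asparagine synthetase, read 6.44 and 6.06 against 8.17 and 8.95, 4.97-fold lower (-2.31 ± 0.35, adjusted p = 0.00486). Slc7a5, a transporter of large neutral amino acids, read 6.72 and 6.56 against 8.21 and 8.11 (-1.52 ± 0.30, adjusted p = 0.0156), and Gars, glycyl-tRNA synthetase, read 7.93 and 7.32 against 8.96 and 9.08 (-1.39 ± 0.22, adjusted p = 0.00647). Glycolysis and glucose uptake gave 4 calls among 23, all lower in LSK cells (17.4%, against 3.93% of all rows). Slc16a1, a lactate and pyruvate transporter, was 3.09-fold lower (-1.63 ± 0.27, adjusted p = 0.0068). Pfkp, Hk3 and Ldha, enzymes of glycolysis, differed by -1.14 ± 0.26, -0.90 ± 0.23 and -0.76 ± 0.20 (adjusted p = 0.0268, 0.0437 and 0.0447). The count for glycolysis was 2, 2, 1 and 2 without LSK pool 1, LSK pool 2, MP pool 1 and MP pool 2, and 2 after a further quantile normalization. Cholesterol synthesis had a median of -0.06 over 21 genes and a single call, lower in LSK cells (4.76%, against 3.93% of all rows). This was Nsdhl (-1.11 ± 0.29, adjusted p = 0.0487, limma), whose call was lost after a further quantile normalization and with the replicate block. Without 1 array in turn Nsdhl ranged from -1.26 to -0.97.

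The direction of these lists held under both scalings, but the calls did not. After a further quantile normalization the counts called lower were 6 for replication, 5 for nucleotide and folate synthesis, 0 for ribosome biogenesis, 4 for the citric acid cycle and respiratory chain, and 4 for amino acid supply. With equal array medians the same counts were 18, 12, 18, 17 and 9. Their medians lay between -0.34 and -0.47 under the first scaling and between -0.61 and -0.78 under the second. Without MP pool 1 the counts were 2, 1, 0, 0 and 2, without MP pool 2 they were 3, 2, 0, 1 and 2, and without LSK pool 2 they were 5, 2, 0, 2 and 2. Most of these genes are bright, and among rows above the median row mean 7.54% were called lower.

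**Figure D4:**
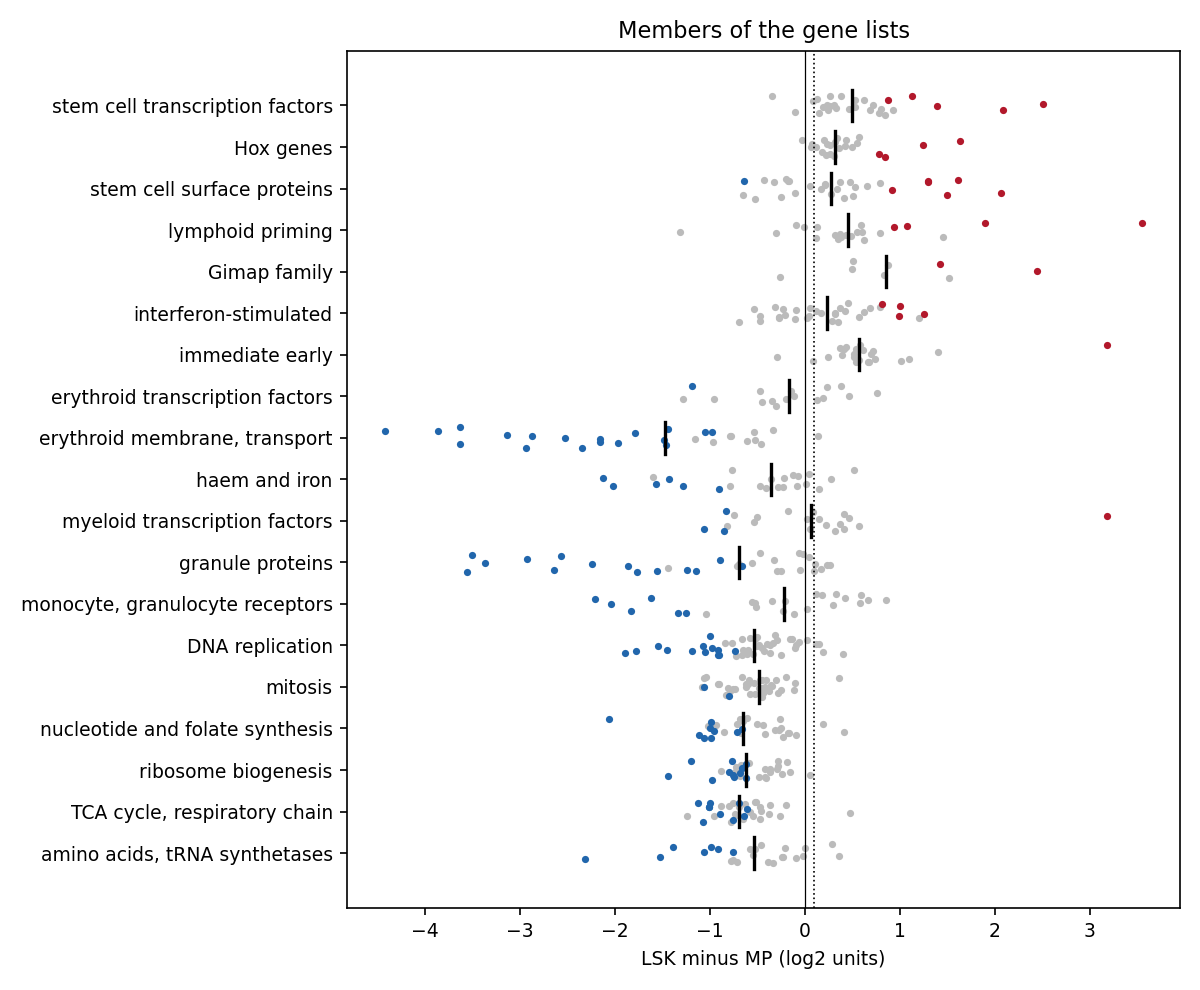
Difference between LSK and MP cells in log2 units (horizontal axis) of every measured member of 19 gene lists; red points were called higher in LSK cells, blue points lower, grey points were not called. Black bars are list medians and the dotted line is the median over all rows, 0.09; the erythroid membrane list has the lowest median, -1.47.

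Arrays of Parp-2-/- mice gave the same cell types a further time. They share no array with the comparison above, although the estimate of spread is common to both. In LSK cells of these mice 190 rows (0.827%) passed as higher and 578 (2.52%) as lower. Of the 297 rows higher in WT, 80 were also called in Parp-2-/- cells (26.9% of the WT list and 42.1% of the other), and 278 (93.6%) had the same sign, against 60.9% of all rows above 0. Of the 903 lower rows, 314 were called (34.8% and 54.3%) and 885 (98.0%) had the same sign, against 39.1% of all rows. The number called in the opposite direction was 0. All of the 15 largest falls and 11 of the 15 largest rises were called there in the same direction.

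By gene, Dntt differed by 4.13 in Parp-2-/- cells against 3.55 in WT, Hlf by 2.54 against 2.51, Car1 by -4.74 against -4.42 and Elane by -3.32 against -3.37. The erythroid list gave 22 calls lower there and the granule list 9, against 18 and 14 in WT. Whether a difference itself depended on genotype was tested with the interaction. Of 22961 rows, 1 (0.00436%) was called and 890 had an unadjusted p under 0.05. That row is Ccnb1ip1, a ubiquitin ligase gene that lies on chromosome 14 with 1 gene between it and Parp2 in RefSeq. It read 3.77 and 3.58 in WT LSK cells and 3.30 and 3.29 in WT MP cells, below the median, and 3.96 and 4.02 against 6.83 and 7.38 in Parp-2-/- LSK and MP cells. The interaction was 3.49 ± 0.27 (adjusted p = 0.00041, limma), and the high arrays were those of Parp-2-/- MP cells. Parp2 differed by -0.73 ± 0.26 between WT LSK and MP cells (adjusted p = 0.122) and Parp1 by 0.02 ± 0.15 (adjusted p = 0.934).

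In irradiated WT mice, whose arrays are also separate, 132 rows (0.575%) passed as higher and 430 (1.87%) as lower in LSK cells. Of the 297 rows higher without radiation, 43 were called (14.5% and 32.6% of the other list) and 277 had the same sign (93.3%, against 58.6% of all rows). Of the 903 lower rows 216 were called (23.9% and 50.2%) and 874 had the same sign (96.8%, against 41.4% of all rows). Again 0 were called in the opposite direction, and 27 higher and 110 lower rows were called in all 3 sets of arrays. The granule list kept its direction, with 17 calls lower and a median of -1.44. The erythroid list gave 6 calls, with a median of -0.65. Nr4a1 differed by 0.14 ± 0.49 after radiation against 3.18 before, Plk2 by -0.14 ± 0.54 against 2.05, and Tlcd4 by -0.12 ± 0.51 against -3.17. None of these changes passed: the irradiation by cell type interaction called 0 rows (0%) by limma, 1272 rows had an unadjusted p under 0.05, the smallest adjusted p was 0.419, and those of Nr4a1, Plk2 and Tlcd4 were 0.597, 0.777 and 0.597. Rhag, at -1.50 against -3.62, had an interaction of 2.12 ± 0.64 (adjusted p = 0.739). The count in irradiated WT was 10 without irradiated MP pool 1, 15 without irradiated MP pool 2 and 2240 without irradiated LSK pool 2. The interaction called 9 rows without WT LSK pool 1 and 2 without WT LSK pool 2.

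**Figure D5:**
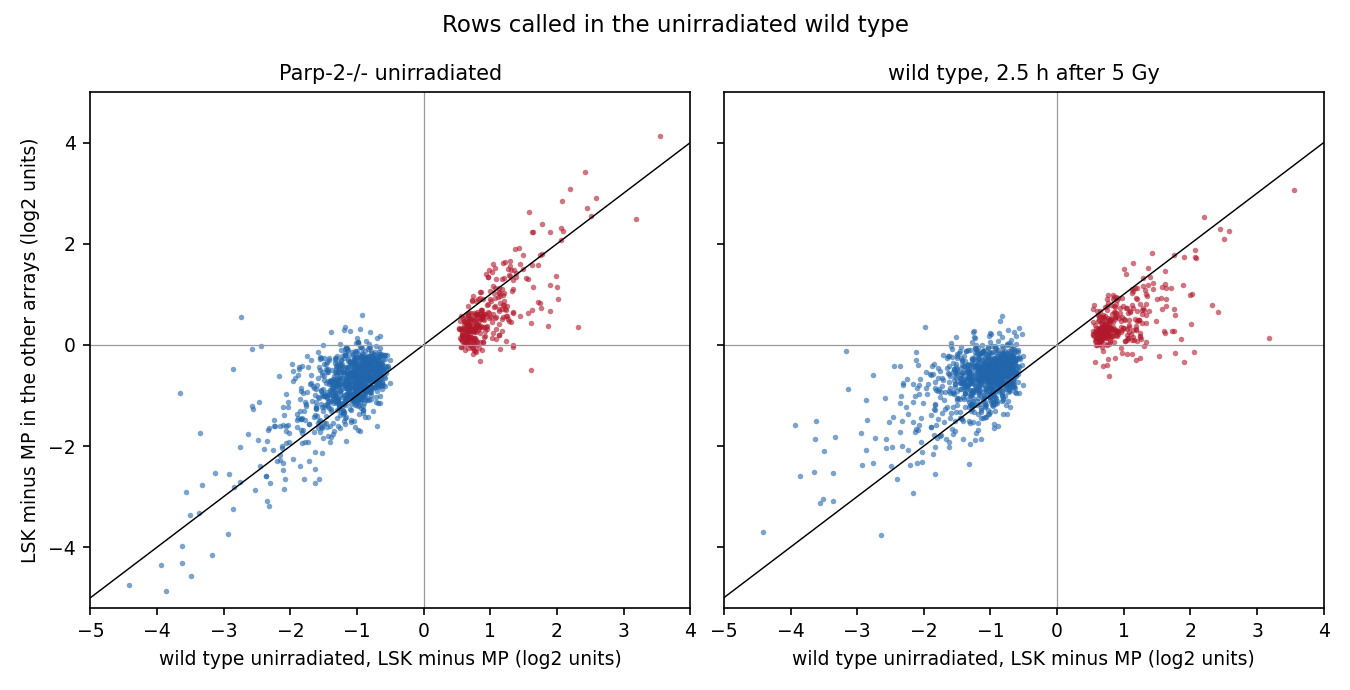
Difference between LSK and MP cells, in log2 units, in unirradiated Parp-2-/- mice (left, vertical axis) and in WT mice 2.5 h after 5 Gy (right, vertical axis) against that in unirradiated WT mice (horizontal axis), for the 297 rows called higher (red) and the 903 called lower (blue) in the latter. The diagonal marks equal values; 278 red and 885 blue points keep their sign on the left, and 277 and 874 on the right.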

How the data were processed

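Messenger RNA was measured on Affymetrix Mouse Gene 1.0 ST arrays, 2 pools in each of 8 groups. The authors deposited log2 intensities per transcript cluster. RMA, limma, affy 2.10 and R 2.15 are listed, without role or order, in the submitters' processing notes; the base of the logarithm was inferred from the range of the values. Array medians of the 4 arrays lay between 4.79 and 4.92. Precision is limited by having 2 arrays per group, and a difference had a standard error of 0.21 at the median.

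The values were used as deposited. Of 34760 rows, 21640 carried 1 symbol, 1321 several and 11799 none; the 22961 with a symbol were tested, and genes are named from rows with 1 symbol. By Entrez identifier, 21553 rows matched RefSeq (GRCm38.p6) and 0 symbols changed. limma 3.58.1 (R 4.3.3) fitted 8 group means over 16 arrays with moderated variances (8 residual and 4.35 prior degrees of freedom), two-sided, with Benjamini-Hochberg adjustment. The fit was tested on simulated data. A table of all values, 37 gene lists (835 genes, 766 measured) and promoter motifs were summarised with Python 3.11.15 and pandas 2.3.3. For a listed gene with several rows, the one of highest mean level was taken.

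Named genes followed a rule: the 15 largest rises and falls among called rows whose groups did not overlap, without predicted, small RNA and multi-copy genes; called list members (every one in lists of 25 or fewer measured genes, up to 6 in longer ones); the 2 largest uncalled members of each list; fixed markers with Parp1 and Parp2; and the largest called interactions. Not every gene so taken is printed. The members, lists and motifs were chosen with earlier results of these data known, so their counts are descriptions. Pool numbers were not taken to pair samples: deviations of same-numbered pools from their group means correlated between -0.17 and 0.23 over the pairs of groups. Alternatives covered the arrays fitted, normalization, rows tested, the variance model, a replicate block and leaving out each array. Genes without a row of 1 symbol are not analysed here.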

Additional observations from a re-analysis of the deposited data

Results flagged for a closer look

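The difference between LSK and MP cells in Ccnb1ip1 depended on genotype by the interaction test over all rows. It was 0.38 in unirradiated WT and -3.11 in unirradiated Parp-2-/- mice, an interaction of 3.49 ± 0.27 (limma, adjusted p = 0.00041; n = 2 pools per group). With only the 8 unirradiated arrays fitted, the call was lost, with a smallest adjusted p over all rows of 0.0523 (limma). All WT values of the row lay below the array medians, so a level in WT is not shown, and the 2 Parp-2-/- MP pools read 6.83 and 7.38. Irradiated Parp-2-/- MP pools read 6.93 and 6.91, and the irradiated WT MP pools 3.31 and 3.47. Groups of 2 are too small to test single arrays for standing apart.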

How the results depend on the processing

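Counts of called rows depended on the arrays fitted. With only the groups compared, the counts were 51 in unirradiated WT (1200 as reported), 119 in Parp-2-/- (768), 68 in irradiated WT (562) and 0 for the genotype interaction (1); with the 8 arrays of the same irradiation state or genotype they were 606, 352, 255 and 0. A further quantile normalization gave 726 in unirradiated and 195 in irradiated WT. Testing all 34760 rows gave 641, 413 and 201, and among rows above the median row mean the genotype interaction called 0, since the Ccnb1ip1 row is not among them. Leaving out each of the 16 arrays in turn gave 186 to 1614 calls in unirradiated WT, 88 to 980 in Parp-2-/-, 10 to 2240 in irradiated WT, 1 to 8 for the genotype interaction and 0 to 9 for the irradiation interaction; the lone array of a group was then assumed to vary like the other groups. The replicate block gave 1101, 731, 483, 1 and 0 calls, in the same order, and 108 of the 117 called named genes passed with it. Apart from the fewer rows or arrays of an alternative, the cause of these changes was not tested.

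Of the 117 called named genes, 85 were called after quantile normalization and 22 on the 4 arrays alone. Direction changed in 0 of them, but only the rescalings could have reversed it. The groups of all called rows were separated, so leaving out 1 array cannot reverse a sign. The remaining alternatives keep the same difference. Of the uncalled named genes, 4 changed sign: Spi1, Gata2 and Parp1, at 0.03, 0.13 and 0.02 as reported, and Bpgm, at 0.44. The gene Spi1 gave -0.0549 and the gene Parp1 -0.0576 with equal array medians. Without 1 array in turn, Spi1 ranged from -0.15 to 0.20, Gata2 from -0.0071 to 0.26, Parp1 from -0.0823 to 0.13 and Bpgm from -0.15 to 1.02. Where a group reads below the array median, the size of a difference is uncertain. In 159 of the 1200 called rows 1 group read below it, and in 70 both did.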

Other observations

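Families of genes outside the lists were summarised by symbol after the values were seen, as descriptions without a test. Of 77 mitochondrial ribosomal protein genes, 22 were called lower in LSK cells and 0 higher, with a median difference of -0.62. Of 40 proteasome subunit genes, 13 were called lower and 0 higher, with a median of -0.65, and of 24 mitochondrial import genes 6 were called lower, with a median of -0.58. Cytoplasmic ribosomal protein genes differed less: of 61, 1 was called higher and 1 lower, and their median was -0.14. Over all rows, 1.29% were called higher and 3.93% lower, with a median of 0.09. Among 364 solute carrier genes, 4 were called higher and 13 lower, with a median of 0.11, and none of 20 semaphorin genes was called by limma, with a median of 0.25.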
